A study of Mus musculus with 6 samples.

Results

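A set of 10 genes of the ovarian-fate programme and its WNT signal were followed in mouse testis after the loss of SRSF2 in Sertoli cells: Rspo1, Wnt4, Fst, Foxl2, Lgr5, Axin2, Lef1, Znrf3, Bmp2 and Irx3. They were chosen by gene symbol, as the RSPO1 and WNT4 axis together with FOXL2 and follistatin, from the 55850 genes of the deposited table, and all 10 were found there. The study measured RNA of whole testis in 6 libraries, 3 from conditional knockout (cKO) mice and 3 from wild-type (WT) mice, with no treatment in either group. SRSF2 is a serine and arginine rich splicing factor, and the series title places its loss in Sertoli cells, the somatic cells that line the seminiferous tubule. No label read here states the age, the strain, the alleles or the driver of the deletion. The labels do not say that libraries came from separate animals, so the p-values measure the spread between these libraries, which may be technical.

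In the fetal gonad the same somatic precursors can become granulosa cells of an ovary or Sertoli cells of a testis. R-spondin 1 and WNT4 drive the ovarian route by stabilising beta-catenin, which acts with TCF and LEF factors on target genes, and the forkhead factor FOXL2 maintains granulosa identity after birth. SOX9 and DMRT1 hold the testis route, and loss of testis factors in Sertoli cells can let ovarian genes rise. The comparison of cKO with WT testis therefore shows whether genes of the ovarian route differed in level when SRSF2 was lost.

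The libraries held 16185976 to 17281330 reads assigned to genes in cKO testis and 16070287 to 16479907 in WT testis. Srsf2, the targeted gene, stood at 74.0, 87.3 and 87.3 FPKM in the cKO libraries, against 127, 96.7 and 102 FPKM in the WT libraries. FPKM are reads scaled to gene length and to the reads of a library. Every cKO library lay below every WT library for Srsf2, with a limma adjusted p = 0.384, and other testis cells also express the gene. Reads of 18S ribosomal RNA took 0.727 to 0.835% of each cKO library, against 1.58 to 2.09% of each WT library. Mitochondrial genes took 2.39 to 2.97% in cKO, against 1.66 to 1.98% in WT. Over all 14238 genes with a mean of at least 1 FPKM, 2 genes passed a limma adjusted p of 0.05, a share of 0.014%. They were Tmem114 and Gm35082, named here after their values were seen, and neither belongs to the ovarian-fate or WNT genes.

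The stretch just before the annotated start is printed for Rspo1 and Wnt4, the ligand genes whose means were lower in cKO, and for Lef1, the member with the largest positive difference. The RefSeq table for build GRCm38.p6 held start sites for 6 of the 10 genes (Rspo1, Wnt4, Foxl2, Axin2, Lef1 and Irx3). The windows are the 250 bases before a start, without bases that GENCODE M21 counts as exon, which leaves 104 bases for Wnt4. For Lef1, with 4 listed starts, the most upstream and the most downstream are given. All 4 lie on the plus strand, and capitals mark motif matches on either strand.
Rspo1, chr4:124986180-124986429: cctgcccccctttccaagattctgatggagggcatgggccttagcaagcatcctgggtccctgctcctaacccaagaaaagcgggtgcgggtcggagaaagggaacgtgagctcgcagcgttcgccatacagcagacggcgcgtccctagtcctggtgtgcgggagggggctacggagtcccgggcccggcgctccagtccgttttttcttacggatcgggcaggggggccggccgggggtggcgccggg
Wnt4, chr4:137277385-137277488: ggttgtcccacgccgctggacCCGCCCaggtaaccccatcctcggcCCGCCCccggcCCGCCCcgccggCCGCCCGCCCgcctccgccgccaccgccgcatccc
Lef1, upstream start, chr3:131110047-131110296: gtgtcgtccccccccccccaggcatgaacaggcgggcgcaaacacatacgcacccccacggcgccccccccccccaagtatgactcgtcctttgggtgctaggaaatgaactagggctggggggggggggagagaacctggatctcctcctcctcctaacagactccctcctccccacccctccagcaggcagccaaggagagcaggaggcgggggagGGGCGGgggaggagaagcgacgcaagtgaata
Lef1, downstream start, chr3:131156044-131156293: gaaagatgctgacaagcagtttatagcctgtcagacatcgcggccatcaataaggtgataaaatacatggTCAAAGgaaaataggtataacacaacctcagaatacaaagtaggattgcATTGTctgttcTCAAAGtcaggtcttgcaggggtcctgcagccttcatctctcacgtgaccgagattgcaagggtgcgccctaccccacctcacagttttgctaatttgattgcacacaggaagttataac

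A search of both strands for 6 short motifs is given beside their share in 32851 promoter windows of 250 bases. The core of TCF/LEF factors, searched as CTTTGA, is held by 13.8% of all windows. The core of SOX factors is short, ACAAT, and 27.7% of all windows hold it. For NR5A1, a steroidogenic nuclear receptor, the letters were AAGGTCA, found in 4.08% of windows. The GATA motif was searched as AGATAA and occurs in 9.99% of windows. The forkhead motif, to which FOXL2's family binds, was TGTTTAC, found in 3.17% of windows. The GC box, searched as GGGCGG, occurs in 32.7% of windows, and its matches can overlap each other. The Rspo1 window held none of the 6. The Wnt4 stretch of 104 bases, shorter than the background windows, held 5 GC boxes. The full window of 250 bases before that Wnt4 start, exon bases included, held 8. The upstream Lef1 window held 1 GC box, while the downstream one held 2 TCF/LEF cores, at positions -180 and -120 from that start, and 1 SOX core. These matches are letters in a window and do not show binding. GC content was 66.8% in the Rspo1 window, 83.7% in the Wnt4 stretch, 66.4% in the upstream and 44.8% in the downstream Lef1 window.

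The 10 genes spanned a wide range of levels, and the ligand genes led. By mean FPKM over all 6 libraries the order was Wnt4 (23.1), Rspo1 (9.99), Axin2 (5.66), Znrf3 (3.94), Lef1 (2.37), Bmp2 (2.30), Lgr5 (1.06), Irx3 (0.984), Fst (0.726) and Foxl2 (0.695). Wnt4 was above Rspo1 in each library without overlap of their ranges, as was Axin2 over Znrf3 and Bmp2 over Lgr5. Lef1 and Bmp2 overlapped, with Lef1 higher in 4 of 6 libraries, and Rspo1, Znrf3, Lgr5, Irx3 and Fst each also overlapped the next in the order. Foxl2, the defining granulosa factor, had the lowest mean over the 6 libraries, and the lowest mean in cKO, while Fst had the lowest in WT.

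**Figure D1:**
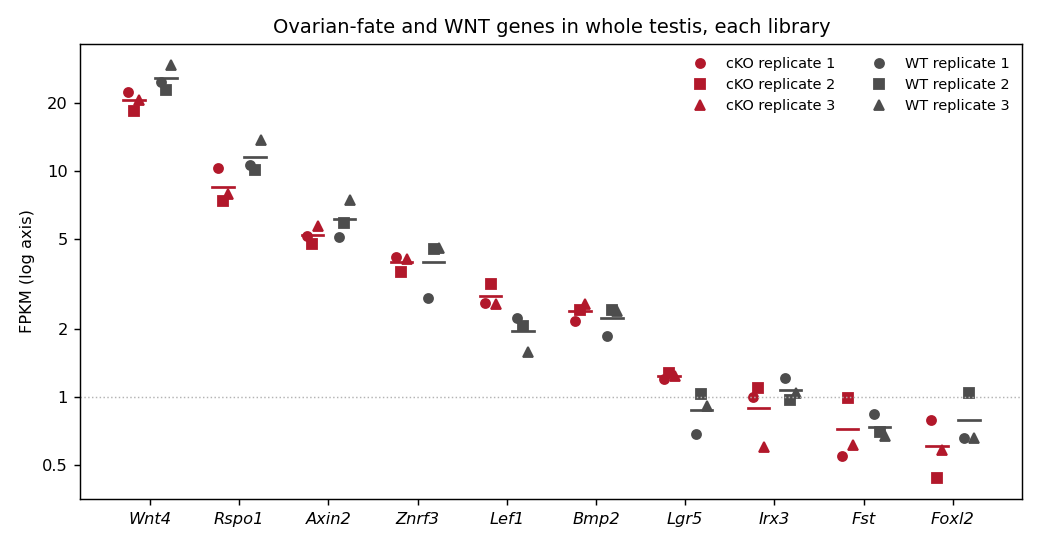
FPKM on a log axis for each of the 10 genes, with cKO libraries in red to the left and WT libraries in grey to the right, marker shape for the replicate and a bar for the group mean. The dotted line marks 1 FPKM, the mean below which genes were not tested. Wnt4 lay lower in every cKO library, and Lef1 and Lgr5 lay higher.

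Rspo1, the secreted R-spondin that amplifies WNT signalling at the cell surface, was lower on average in cKO testis. It stood at 10.3, 7.35 and 7.90 FPKM in the cKO libraries, against 10.6, 10.1 and 13.6 FPKM in the WT libraries. cKO replicate 1 lay within the WT range and the other cKO libraries lay below it, so the groups overlapped. The means were 8.52 ± 1.57 FPKM in cKO and 11.5 ± 1.90 FPKM in WT (SD, n = 3 each), so the cKO mean was 74.3% of the WT mean. In bulk tissue, fewer cells of a type and less RNA per cell cannot be told apart, here and for all genes that follow. On the log2(FPKM + 1) scale, which understates the change of low genes, the difference of cKO minus WT was -0.39 (SE 0.16, 95% interval -0.76 to -0.02, limma adjusted p = 0.397). It had the lowest unadjusted p of the tested members, 0.0409 by limma, and did not pass over all genes. The gene (ENSMUSG00000028871) lies on chromosome 4 at 124986430 to 125009099 of GRCm38, plus strand. It shares exon bases with no other gene of the annotation.

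Wnt4, the WNT ligand that acts with RSPO1 in the ovary, was lower in each cKO library. Its levels were 22.4, 18.5 and 20.7 FPKM in the cKO libraries, against 24.7, 22.7 and 29.5 FPKM in the WT libraries. The groups did not overlap, by a narrow margin between cKO replicate 1 and WT replicate 2. The mean was 20.5 ± 1.95 FPKM in cKO and 25.7 ± 3.48 FPKM in WT (SD, n = 3 each). Its log2 difference of cKO minus WT came to -0.31 (SE 0.13, 95% interval -0.62 to 0.0044, limma adjusted p = 0.406), with an exact two-sided permutation p of 0.1, the smallest that 3 against 3 can give. The reads behind Wnt4 numbered 1366 to 1601 per cKO library, against 1600 to 2017 per WT library, so it was the most deeply measured of the 10. Wnt4 (ENSMUSG00000036856) lies on the same chromosome at 137277489 to 137299726, plus strand.

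Of the cell-surface partners of the ligands, 1 had a higher mean in cKO and 1 had nearly equal means. Lgr5, a receptor for R-spondins and itself a WNT target, was higher in every cKO library, at 1.198, 1.28 and 1.23 FPKM, against 0.686, 1.03 and 0.914 FPKM in the WT libraries. The groups did not overlap and the cKO libraries were close together (1.24 ± 0.0396 FPKM in cKO and 0.876 ± 0.174 FPKM in WT, SD, n = 3 each). For Lgr5 cKO minus WT came to 0.26 in log2 (SE 0.16, 95% interval -0.12 to 0.63, limma adjusted p = 0.527, exact permutation p = 0.1). Znrf3, the ubiquitin ligase that removes WNT receptors and that R-spondins inhibit, was at 4.16, 3.57 and 4.05 FPKM in cKO, against 2.73, 4.53 and 4.56 FPKM in WT. WT replicate 1 stood apart below all other libraries for Znrf3, and cKO minus WT came to 0.02 in log2 (SE 0.18, 95% interval -0.39 to 0.42, limma adjusted p = 0.972). Lgr5 (ENSMUSG00000020140) lies on chromosome 10 at 115450311 to 115587780, minus strand, and Znrf3 (ENSMUSG00000041961) on chromosome 11 at 5276324 to 5444847, minus strand. Neither has exon bases in common with another gene.

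Of the nuclear factor and the feedback target of the pathway, the factor had a higher and the target a lower mean in cKO. Lef1, a DNA-binding partner of beta-catenin, stood at 2.60, 3.16 and 2.57 FPKM in the cKO libraries, against 2.24, 2.05 and 1.58 FPKM in the WT libraries. All cKO libraries were higher than all WT libraries, with means of 2.78 ± 0.334 FPKM in cKO and 1.95 ± 0.341 FPKM in WT (SD, n = 3 each), so the cKO mean was 142% of the WT mean. In log2, cKO minus WT came to 0.36 (SE 0.15, 95% interval 0.02 to 0.70, limma adjusted p = 0.4001, exact permutation p = 0.1). Axin2, the scaffold of the beta-catenin destruction complex and a widely used readout of the pathway, was at 5.13, 4.73 and 5.71 FPKM in cKO, against 5.12, 5.85 and 7.41 FPKM in WT. The values of cKO replicates 1 and 3 lay within the WT range of Axin2, and cKO minus WT came to -0.19 in log2 (SE 0.15, 95% interval -0.53 to 0.14, limma adjusted p = 0.585). Lef1 (ENSMUSG00000027985) lies on chromosome 3 at 131110471 to 131224356, plus strand, and shares exon bases with the antisense gene Gm43352. Axin2 (ENSMUSG00000000142) lies on chromosome 11 at 108920349 to 108950783, plus strand, and shares exon bases with the antisense gene Gm11670, which held 0 to 2 reads per library. Whether counting used strand is not stated in what was read here, so reads of such pairs may be mixed.

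Foxl2, Fst and Irx3, which mark the granulosa lineage, stayed below a mean of 1 FPKM and were not in the main test. Foxl2 had 44, 25 and 31 reads in the cKO libraries, or 0.792, 0.436 and 0.583 FPKM, against 34, 57 and 35 reads in the WT libraries, or 0.657, 1.04 and 0.659 FPKM. The 100 cKO reads have an exact Poisson 95% interval of 81.4 to 122 and the 126 WT reads one of 105 to 150, intervals that overlap and cover counting error only. WT replicate 2 was the highest of the 6, and it was also the highest for Foxl2os, the antisense gene sharing exon bases with Foxl2, which had 7, 5 and 10 reads in cKO, against 8, 25 and 7 reads in WT. In the fit without a filter Foxl2 stood at -0.15 in log2 (SE 0.16, limma adjusted p = 0.788).

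Fst, which encodes follistatin, the secreted activin antagonist downstream of WNT4 in the ovary, was at 0.549, 0.989 and 0.614 FPKM in cKO, against 0.836, 0.701 and 0.668 FPKM in WT. cKO replicate 2 was the highest and cKO replicate 1 the lowest of all libraries, so the cKO range enclosed the WT range. Without a filter cKO minus WT was -0.02 in log2 (SE 0.16, 95% interval -0.40 to 0.35, limma adjusted p = 0.980). Irx3, an Iroquois homeobox factor of pregranulosa cells, stood at 0.997, 1.09 and 0.599 FPKM in cKO, against 1.21, 0.971 and 1.04 FPKM in WT. The low cKO value came from replicate 3, with 27 reads, and without a filter cKO minus WT was -0.14 in log2 (SE 0.17, limma adjusted p = 0.814). Bmp2, a bone morphogenetic protein of the early ovary, was above the filter, at 2.16, 2.43 and 2.57 FPKM in cKO, against 1.86, 2.41 and 2.40 FPKM in WT. Its groups overlapped and cKO minus WT was 0.07 in log2 (SE 0.14, 95% interval -0.25 to 0.40, limma adjusted p = 0.831).

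These 4 genes lie on separate chromosomes of GRCm38. Foxl2 (ENSMUSG00000050397) is on chromosome 9 at 98955288 to 98958543, plus strand, and Fst (ENSMUSG00000021765) on chromosome 13 at 114452290 to 114458951, minus strand. Irx3 (ENSMUSG00000031734) is on chromosome 8 at 91798525 to 91802067, minus strand, and Bmp2 (ENSMUSG00000027358) on chromosome 2 at 133552159 to 133562885, plus strand. Fst shares exon bases with the antisense gene Gm47040, listed at 0 reads in all 6 libraries, and Irx3 with Irx3os, which had 11, 0 and 4 reads in cKO, against 0, 0 and 2 reads in WT.

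Counted together, 7 of the 10 genes were tested, and 4 had a positive and 3 a negative log2 difference. Their median was 0.02, beside 0.0049 over all genes tested. Lgr5 passed the filter through its cKO libraries, with means of 1.24 FPKM in cKO and 0.876 FPKM in WT. Irx3 missed it, with means of 0.895 FPKM in cKO and 1.07 FPKM in WT. The counts given here depend on that filter, and without it the median of the members was -0.080. Over all genes, 0 of the 7 passed the limma adjusted threshold, where 0.014% of all genes did. At an unadjusted limma p under 0.05, Rspo1 was lower and Lef1 higher, 1 of 7 in each direction, where 7.68% of all tested genes were lower and 4.65% higher. With limma voom on recovered reads 2 members, Lef1 and Lgr5, were under an unadjusted 0.05 and 0 passed after adjustment. Groups did not overlap for Wnt4, lower in cKO, and for Lef1 and Lgr5, higher in cKO, where 9.92% of tested genes were lower and 8.69% higher without overlap. With 7 genes, 1 gene more or less moves these shares widely. No tested member had a limma adjusted p under 0.05 over all genes, also where its groups did not overlap.

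**Figure D2:**
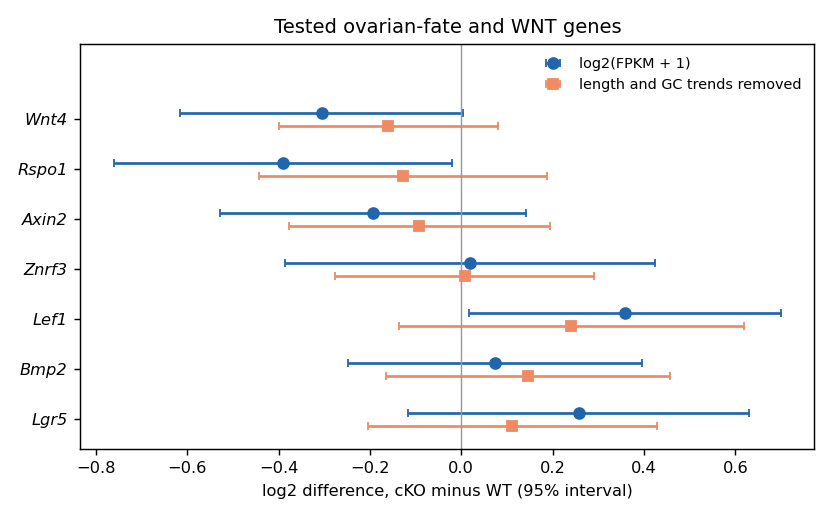
Log2 difference of cKO minus WT for the 7 tested genes, with 95% limma intervals, on log2(FPKM + 1) values (blue circles) and with each library's trends on gene length and GC content removed (orange squares). Only the blue intervals of Rspo1 and Lef1 leave out 0, and no orange one does.

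Single libraries weighed on these values. For Rspo1, Wnt4 and Axin2 the lowest of the 6 libraries was cKO replicate 2 and the highest WT replicate 3, and for Lef1 it was the reverse, with cKO replicate 2 highest and WT replicate 3 lowest. Without WT replicate 3 the log2 difference was -0.27 for Rspo1, -0.20 for Wnt4, -0.07 for Axin2 and 0.26 for Lef1. Without cKO replicate 2 it was -0.30 for Rspo1, -0.24 for Wnt4, -0.14 for Axin2 and 0.29 for Lef1. Without cKO replicate 1, the cKO library nearest to WT for Rspo1, that gene's difference was -0.52.

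**Figure D3:**
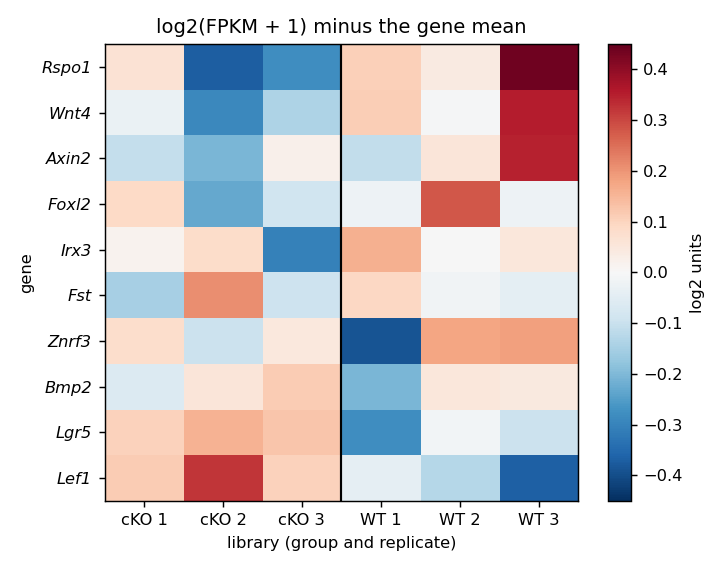
Log2(FPKM + 1) of each gene minus its mean over the 6 libraries, cKO libraries left of the black line and WT libraries right of it, red for above and blue for below the mean. Rspo1, Wnt4 and Axin2 are bluest in cKO replicate 2 and reddest in WT replicate 3, and Lef1 has the opposite colours there.

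The differences of the 7 tested genes went broadly with the GC content of their transcripts. The genes with lower means in cKO were GC-rich, at 59.7% for Rspo1, 55.9% for Wnt4 and 54.6% for Axin2. The genes near 0 lay between, at 52.5% for Bmp2 and 50.7% for Znrf3, and the genes with higher means in cKO had the lowest GC of the tested members, at 46.1% for Lef1 and 44.7% for Lgr5. These also had the longest gene models, 8788 bases for Lef1 and 10264 for Lgr5, against 1938 for Rspo1. Foxl2 and Irx3, below the filter, had the highest GC of all members, at 60.8% and 62.5%. In the fit without a filter their log2 differences were -0.15 and -0.14. Fst, also below the filter, had the lowest GC of all members, at 44.3%, yet stood at -0.02 and did not follow the pattern. With 7 tested genes chosen for their pathway, the pattern is a description and carries no test.

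The same slope ran through the table. When 13945 tested genes with a GC value were cut into 10 groups by GC, the group with the lowest GC had a median log2 difference of 0.23 and 10.7% of its genes were lower in cKO, whereas the group with the highest GC had a median of -0.26 and 90.5% of its genes were lower. In that GC-richest group, which holds Rspo1, the median library level relative to the gene mean was 0.03, -0.22 and -0.21 in the cKO libraries, against 0.16, 0.09 and 0.16 in the WT libraries. In this group cKO replicate 1, where Rspo1 was within the WT range, stood apart from the other cKO libraries. A link between that and the level of Rspo1 was not tested. The median of the GC group to which a member belongs was -0.16 for Wnt4, -0.13 for Axin2, 0.08 for Lef1 and 0.11 for Lgr5.

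With each library's trends on length and GC removed, the differences of 6 of the 7 genes shrank and that of Bmp2 grew to 0.15. Rspo1 moved to a log2 difference of -0.13 (SE 0.13, 95% interval -0.44 to 0.19), Wnt4 to -0.16 (SE 0.10), Axin2 to -0.09 (SE 0.12), Lgr5 to 0.11 (SE 0.14) and Lef1 to 0.24 (SE 0.16). Adjusted p by limma in that fit ran from 0.702 for Wnt4 to 0.994 for Znrf3, and 0 of the 7 had an unadjusted p under 0.05. Such a correction would also remove any effect of genotype that goes with GC or length, and the trend and the genotype cannot be told apart in these libraries.

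**Figure D4:**
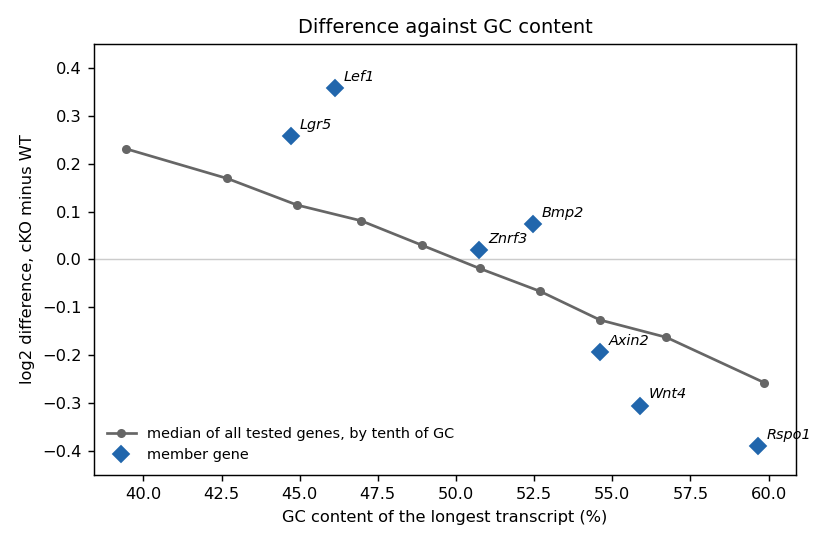
Log2 difference of cKO minus WT against the GC content of the longest annotated transcript, for the 7 tested genes (blue) and as the median of all tested genes in 10 groups by GC (grey line, drawn at the median GC of each group). The grey line runs between 0.23 and -0.26, and Rspo1, Wnt4 and Axin2, the most GC-rich of the 7, lie below 0.

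Other genes of the WNT pathway came from lists chosen with earlier results of these data known. These lists gave 0 genes past the limma adjusted threshold in any list, and 1 gene of the whole table passed with voom. Of 19 WNT ligand genes 7 were tested, with 5 lower and 2 higher in cKO. The median log2 difference was -0.31, Wnt4 being the median gene, and 3 were lower at an unadjusted limma p under 0.05. Over all tested genes 7.68% were lower and 4.65% higher at that level, which is the base for the counts of each list below. Wnt5b, a ligand known mainly for beta-catenin-independent signalling, was at 8.72, 6.95 and 7.06 FPKM in cKO, against 12.8, 11.5 and 11.4 FPKM in WT, without overlap. Its log2 difference was -0.59 (SE 0.12, limma adjusted p = 0.360). Wnt6, the most abundant ligand measured, was at 103, 89.7 and 78.5 FPKM in cKO, against 135, 108 and 135 FPKM in WT, a log2 difference of -0.47 (SE 0.16, limma adjusted p = 0.379). Wnt11 had a log2 difference of -0.47, with groups that overlapped. The median of the ligands was -0.16 with length and GC trends removed and -0.03 without a filter, where the low ligands enter.

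Receptors and the intracellular relay were balanced between directions. Among 22 R-spondin and receptor genes 20 were tested, 10 higher and 10 lower, with a median of 0.02 and 2 in each direction at an unadjusted p under 0.05. Ror2, a receptor of WNT5A, stood at a log2 difference of -0.47, while the Frizzled genes Fzd9 and Fzd3 stood at 0.35 and 0.31. Of 18 relay genes all were tested, 8 higher and 10 lower (median -0.02, 1 higher at an unadjusted p under 0.05), with Dvl2, which carries the signal from Frizzled, at -0.34, Axin1, of the destruction complex, at -0.27 and Pygo2, a nuclear co-factor, at -0.25. Ctnnb1, which encodes beta-catenin and was named outside the rule, had means of 142 FPKM in cKO and 144 FPKM in WT.

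Feedback targets and antagonists gave no shared direction. Of 14 targets 12 were tested, 6 higher and 6 lower, with a median of -0.0028, and 1, Lef1, was higher at an unadjusted p under 0.05. Besides the members, Nkd1, which restrains Dishevelled, stood at -0.28, the transcription factor gene Sp5 at -0.24 and Apcdd1, a membrane inhibitor, at -0.16. Of 15 antagonist genes 8 were tested, 3 higher and 5 lower (median -0.12, 0 at an unadjusted p under 0.05), with Sostdc1, a secreted WNT and BMP antagonist, at 0.30, Frzb at -0.24 and Kremen1, a co-receptor of Dickkopf proteins, at -0.21. The lowest limma adjusted p of these genes was 0.360 among ligands, 0.379 among receptors, 0.4001 among relay genes and targets and 0.487 among antagonists.

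**Figure D5:**
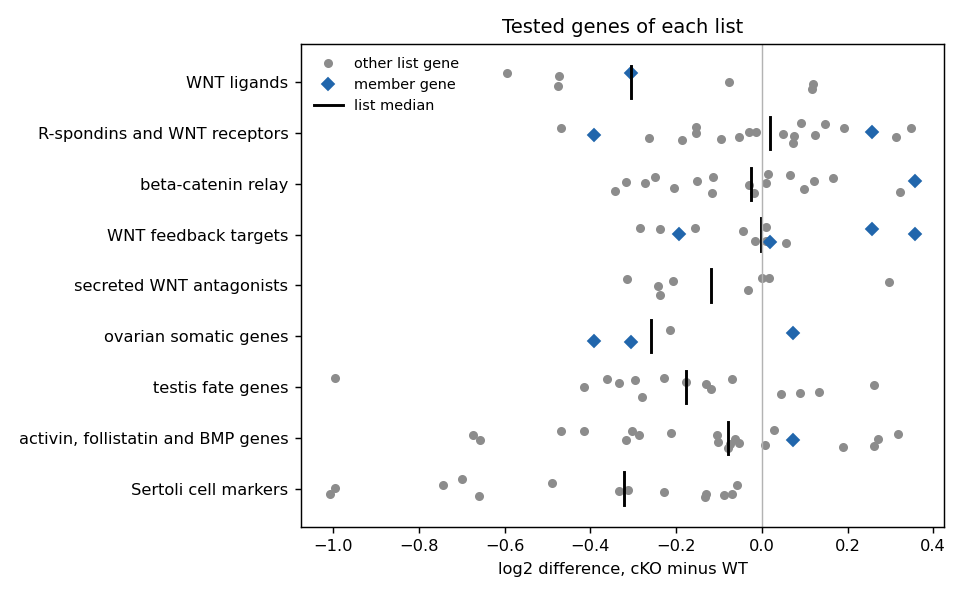
Log2 difference of cKO minus WT for each tested gene of 9 lists, with members as blue diamonds, other genes in grey and the list median as a black bar. Vertical scatter within a list has no meaning. Sertoli markers all lie below 0, while receptors, relay genes and targets spread about 0.

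On the side of gonadal identity, 8 of 12 ovarian somatic genes averaged below 1 FPKM. Of the 12 ovarian somatic genes 4 were tested (Rspo1, Wnt4, Bmp2 and Esr2, the oestrogen receptor beta gene at a log2 difference of -0.21), 1 higher and 3 lower, with a median of -0.26 (-0.14 with length and GC trends removed), and Rspo1 alone was under an unadjusted p of 0.05. Besides Foxl2, Fst and Irx3, those below the filter, which the rule for named genes does not cover, had group means in cKO and WT of 0.774 and 0.845 FPKM for Gng13, 0.459 and 0.601 FPKM for Msx1, 0.452 and 0.381 FPKM for Runx1, 0.209 and 0.188 FPKM for Irx5, and 0.0824 and 0.141 FPKM for Cyp19a1, the aromatase gene. Of 15 tested testis-fate genes 11 had a negative log2 difference, with a median of -0.18 (-0.070 with length and GC trends removed). At an unadjusted limma p under 0.05 there were 4 lower, where 7.68% of all tested genes were. Amh, the hormone of immature Sertoli cells, was at 454, 366 and 330 FPKM in cKO, against 907, 619 and 777 FPKM in WT, without overlap. It had a log2 difference of -0.995 (SE 0.20, limma adjusted p = 0.360), Dmrt1, a keeper of male identity, one of -0.36 and Dhh, a Sertoli ligand, one of -0.33. Sry was listed at 0 reads in all 6 libraries. Sox9, named outside the rule, averaged 16.2 FPKM in cKO and 19.2 FPKM in WT, a log2 difference of -0.23.

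Of 25 activin, follistatin and BMP genes, 21 were tested, 7 higher and 14 lower, with a median of -0.08. At an unadjusted limma p under 0.05 there were 1 higher and 5 lower, where 4.65% of all tested genes were higher and 7.68% lower. Inhbb and Inha, which encode inhibin and activin subunits, stood at -0.41 and -0.47, and Id3, a BMP target, at -0.67. Named outside the rule, Inhba, another subunit gene of the list, went the other way at 0.19. The 1 gene higher at that level was the activin receptor gene Acvr2a, at 0.32. The lowest limma adjusted p was 0.360 among testis-fate genes, 0.372 among activin and BMP genes and 0.397 among ovarian genes.

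Markers of the cell types in the sample were also summed by library. The sum was lower in every cKO library than in every WT library for Sertoli, stroma and endothelial lists. The Leydig and germ cell sums overlapped between the groups. Such sums are led by the most abundant genes, and the median log2 difference was -0.02 for stroma and -0.06 for endothelial markers. All 14 Sertoli markers were measured and had a negative log2 difference (median -0.32), where 7004 of all 14238 tested genes were lower. The summed level of the 14 was 1039 to 1187 FPKM in the cKO libraries, against 1439 to 1918 FPKM in the WT libraries, with no overlap. Cst9, a Sertoli cystatin, and Shbg stood at -1.01 and -0.66. Of the 14, 6 were lower at an unadjusted limma p under 0.05, where 7.68% of all tested genes were. After adjustment over all genes 0 passed (lowest limma adjusted p 0.306). The list was chosen with earlier results of these data known, so these counts are a description and no independent test. Of 12 stroma and peritubular markers 11 were tested, 5 higher and 6 lower (median -0.02), and their sum was 940 to 1147 FPKM in cKO, against 1174 to 1242 FPKM in WT. Gsn, Fbln1 and Tcf21, the 3 of lowest unadjusted limma p in that list, had log2 differences of -0.44, -0.32 and -0.47. The 5 higher genes ran from 0.0051 for Pdgfra to 0.086 for Dcn. Leydig markers were 4 higher and 3 lower of 7, with a median of 0.19. That median was -0.023, 0.075 and 0.33 when WT replicates 1, 2 and 3 were left out in turn. Leydig sums were 1532 to 1789 FPKM in cKO, against 1320 to 1951 FPKM in WT. Lhcgr stood at 0.51 and Hsd3b1 at 0.23, while Hsd17b3 stood at -0.15.

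Endothelial markers were 2 higher and 5 lower of 7 (median -0.06). Their sums were 79.9 to 86.0 FPKM in cKO, against 86.5 to 98.2 FPKM in WT. Egfl7, Tie1 and Pecam1 stood at -0.61, -0.28 and -0.15. The 2 higher genes, Tek and Emcn, named outside the rule, stood at 0.10 and 0.11. Of 8 germ cell markers 7 were tested, all with a positive log2 difference (median 0.40, or 0.24 without WT replicate 3 and 0.25 without cKO replicate 2), with sums of 179 to 271 FPKM in cKO, against 133 to 281 FPKM in WT, and Tex14, Dazl and Sycp3 at 0.49, 0.52 and 0.56. No marker of these 5 cell types was at 0 in all libraries, and of their markers the limma adjusted p was 0.372 or higher outside the Sertoli list. The part of these cell types in the levels of Rspo1, Wnt4, Lef1 and Lgr5 was not tested.

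Among the 3 genes whose pattern over the 6 libraries was most like Rspo1 were Lrp10 and Traf4, which are in none of the pathway lists. After each gene was centred and divided by its SD over the 6 libraries, the root mean square difference from Rspo1 was 0.121 SD for Lrp10, a member of the LDL receptor family, and 0.125 SD for Traf4, a signalling adaptor. Lrp10 averaged 14.02 ± 1.78 FPKM in cKO and 16.8 ± 1.30 FPKM in WT (SD, n = 3 each). Wnt4 ranked 42 among the other tested genes by this measure (0.223 SD), while Axin2 ranked 1829 and Lef1 ranked 14063, near the opposite end. With 6 libraries many genes share such a pattern, and likeness says nothing of shared control.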

How the data were processed

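The values are FPKM per gene, as the authors deposited them in a single table of 6 whole-testis libraries. Trizol extraction and a SMARTER mRNA-Seq library kit are named per the labels' protocols. The submitters' processing notes name builds GRCm38 and mm10. For aligner, counter, annotation and strand: not given in the sources used here. Gene positions in the table are of another build (1551 of 52133 identifiers shared with GENCODE M21 have the same start), so positions were looked up in GENCODE M21. Multiplying FPKM by gene length recovered whole reads (100% of values, tolerance 0.01).

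For the main test, log2(FPKM + 1) values of the 14238 genes averaging 1 FPKM or more entered limma 3.58.1 in R 4.3.3 with its trend option, two-sided, with Benjamini-Hochberg adjustment over all of them. On simulated data it recovered most changed genes, with a share of false calls above the threshold. The simulated libraries had the same spread for all genes and no trend on GC or length, unlike the libraries measured here. Recovery of differences as small as those of the members was not tested. Exact tests used every split of 3 against 3. The members, lists and tests were chosen with earlier results of these data known. Named genes are the 10 members, Srsf2, up to 3 genes of lowest p per list, and the 3 genes most like the member of lowest p. Of the last, 1 is not reported here. GC content is that of the longest GENCODE M21 transcript (known for 97.9% of tested genes), and the trend removal used natural splines with 5 degrees of freedom. Python 3.11.15 and pandas 2.3.3 were used for joins. The table holds genes, so splicing is not analysed here.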

Additional observations from a re-analysis of the deposited data

How the results depend on the processing

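With 16 alternatives, 0 members passed the adjusted threshold in any, and Rspo1, Wnt4, Axin2, Lef1 and Lgr5 kept their direction in each that tested them. Bmp2 turned to -0.011 and Znrf3 to -0.17 without WT replicate 1, and Znrf3 also to -0.016 when cKO replicate 1 was left out and to -5.59e-05 when cKO replicate 3 was. Leaving out each library gave a log2 difference of -0.52 to -0.27 for Rspo1, -0.39 to -0.20 for Wnt4, 0.18 to 0.32 for Lgr5, -0.30 to -0.068 for Axin2, 0.26 to 0.43 for Lef1, -0.17 to 0.12 for Znrf3 and -0.011 to 0.12 for Bmp2.

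The 2 genes past the threshold over all genes became 1 with a pseudocount of 0.1, a filter of 5 FPKM, the TPM scale or voom, 3 with length and GC trends removed, and 0 without a filter, with the replicate block or when any 1 library was left out. The 2 members at an unadjusted limma p under 0.05, Rspo1 and Lef1, became 1 with a filter of 5 FPKM or on the TPM scale. With that filter it was Rspo1, as Lef1 was not tested, and on the TPM scale it was Lef1. The count was 0 with the replicate block or with length and GC trends removed, and 0 to 2 when a library was left out. Without a filter, without cKO replicate 1 and without WT replicate 2, the 2 members were Rspo1 and Wnt4. The deviations of same-numbered libraries had correlations of 0.0948, -0.331 and 0.393, not all positive, so the numbers were not taken as pairs. Not every library was most like its own number.

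Medians moved by more than the spread between libraries in these cases, unless a shift is said to lie within it. The cause was not tested except where other genes enter a filter. Without a filter the median was -0.080 for members, -0.033 for ligands, -0.023 for antagonists and -0.093 for ovarian genes. With a filter of 5 FPKM it was -0.31 for members, 0.0084 for antagonists, -0.35 for ovarian genes, -0.095 for stroma and -0.11 for endothelium. With voom it was -0.13, -0.074 and -0.023 for members, ligands and antagonists. On the TPM scale it was -0.037 for activin and BMP genes and -0.0014 for endothelium. The TPM medians of the relay (0.035), targets (0.051) and stroma (0.042) were above 0, a shift within that spread. With length and GC trends removed it was -0.16 for ligands, -0.14 for ovarian, -0.070 for testis-fate and -0.031 for activin and BMP genes. When a library was left out, medians ran from -0.17 to 0.11 for members, -0.15 to 0.058 for the relay and -0.11 to 0.066 for targets. The ranges were -0.15 to -0.025 for antagonists, -0.17 to -0.050 for activin and BMP genes, -0.10 to 0.0053 for stroma and -0.20 to 0.0045 for endothelium. In each of these ranges, from members to endothelium, not every omission moved the median by more than that spread. Some range ends, such as the upper ones of the relay and targets, lay within it. Leydig medians ran from -0.023 to 0.33 and germ cell medians from 0.24 to 0.57, shifts within the spread between libraries.

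Depth limits Foxl2, Irx3 and Fst, with 25 to 80 reads per library.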
